A study of Mus musculus with 12 samples.

Results

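The 10 miRs described here are mature microRNAs best known from organs other than the liver, read out in fetal mouse liver, most of them at trace levels. They were chosen by name from the 1927 entries of the count table, with earlier results of these data known. Of the 10, 3 are neural (mmu-miR-9-5p, mmu-miR-9-3p and mmu-miR-124-3p), 3 are from muscle (mmu-miR-1a-3p, mmu-miR-133a-3p and mmu-miR-206-3p) and 4 are from pancreas (mmu-miR-375-3p, mmu-miR-216a-5p, mmu-miR-216b-5p and mmu-miR-217-5p). mmu-miR-133a-3p is counted together with mmu-miR-133b-3p in a single entry, because their reads could not be told apart. The livers came from female fetuses at E18.5 on a C57BL/6J background, 5 wild type (WT) and 7 littermates that inherited a deletion of Mir483 from the father (Mir483Pat-KO). The deletion is constitutive, was made by Cre recombinase in embryonic stem cells of 2 independent clones, and removes the miR from the allele that is expressed. Each library holds the small RNA of 1 fetus, so replicates are different fetuses. Which libraries hold the 10 miRs, and whether miRs of one organ were high in the same livers, are the questions addressed.

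A mature miR is cut from a hairpin whose arms give the 5p and the 3p form, and it pairs with messenger RNAs mainly through its seed, bases 2 to 8. miR-9 is expressed in neural progenitors and neurons, and miR-124 is the most abundant miR of neurons. miR-1 and miR-133 are made in heart and skeletal muscle, and miR-206 in skeletal muscle. miR-375 marks the endocrine islets of the pancreas and is also found in gut and other epithelia, whereas miR-216 and miR-217 mark its exocrine acinar cells.

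The reference table of RefSeq for GRCm38.p6 held the mature sequences of 6 of the 10 miRs, and they are shown with the seed in capitals, 5′ to 3′, because the letters decide which miRs a read can be mistaken for. mmu-miR-133b-3p is shown as the other name of the shared entry, and mmu-miR-217-3p as the second arm of the hairpin of mmu-miR-217-5p.
mmu-miR-9-5p: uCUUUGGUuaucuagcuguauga
mmu-miR-9-3p: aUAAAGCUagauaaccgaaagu
mmu-miR-206-3p: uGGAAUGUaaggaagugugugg
mmu-miR-133b-3p: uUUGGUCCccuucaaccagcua
mmu-miR-216a-5p: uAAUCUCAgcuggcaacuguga
mmu-miR-216b-5p: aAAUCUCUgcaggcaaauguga
mmu-miR-217-5p: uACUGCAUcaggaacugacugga
mmu-miR-217-3p: cAUCAGUUccuaaugcauugccu
The 8 sequences shown had different seeds. mmu-miR-124-3p, mmu-miR-375-3p, mmu-miR-1a-3p and mmu-miR-133a-3p had no sequence in that table, so their seeds were not compared. Among those shown, the closest pair was mmu-miR-216a-5p with mmu-miR-216b-5p, whose seeds matched at 6 of 7 positions. The same mature mmu-miR-9-5p is made from 3 genes, so its reads cannot be assigned to a gene. These are Mir9-1 at chr3:88215598-88215686 in an intron of Gm3764, Mir9-2 at chr13:83738814-83738885 in an exon of C130071C03Rik, and Mir9-3 at chr7:79505264-79505353 in an intron of Mir9-3hg, all on the plus strand of GRCm38. The acinar miRs form a cluster on chromosome 11, with Mir216b at chr11:28746191-28746276, Mir216a 10735 bases further on at chr11:28757012-28757083 and Mir217 another 6644 bases on at chr11:28763728-28763835, the last pair within introns of Gm12082. Mir206 (chr1:20679010-20679082) and Mir133b (chr1:20682769-20682887) lie 3686 bases apart in exons of the lincRNA gene Gm28653. Mir375 stands alone at chr1:74900658-74900721 on the minus strand, with no other annotated gene over it.

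Total counts per library lay between 658665 and 1211160, so the floor used here, 3 counts, corresponded to 2.48 to 4.55 CPM (counts scaled to a common library total). PCR copies of a molecule are counted as separate reads, so floors and intervals cover counting error only. Counts were compared within a miR, since ligation in this library kit favours some sequences over others. The lowest count above 0 in the table is 2, and zeros among low counts were more frequent than counting error gives. Where the other libraries of the same genotype predicted 5 to 10 reads, 196 of 873 entries (22.5%) stood at 0, against 1.37 zeros from counting error alone. Where they predicted 10 to 20 reads, 58 of 794 entries (7.30%) did. Where they predicted 20 to 100 reads, 16 of 1417 entries (1.13%) did. A single 0 is therefore not read as absence here. The targeted miR followed the labels, with 733 to 1281 reads of mmu-miR-483-3p in WT and 0 to 19 in Mir483Pat-KO. mmu-miR-122-5p, the defining miR of hepatocytes, had 87298 to 187689 reads per library, and all 5 miRs of the liver list were counted in every library.

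Of the 10 miRs, 8 had a count in at least 1 library and 2 were at 0 in all 12. Only mmu-miR-9-5p and mmu-miR-375-3p were counted in every library, as were 358 of the 682 miRs with any count. By mean CPM they ranked 204 and 168 of those 682, so these 2 were not at trace levels. The others with any count ranked from 416 to 677. The 10 miRs together took 136 to 524 reads per library, or 0.0173% to 0.0730% of its counts. mmu-miR-9-5p and mmu-miR-375-3p supplied 91.4% of those 2747 reads. The largest number of the 10 in a single library was 7, in WT replicate 1, which is also the deepest library, and the smallest was 3, in Mir483Pat-KO replicate 2, the shallowest.

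**Figure D1:**
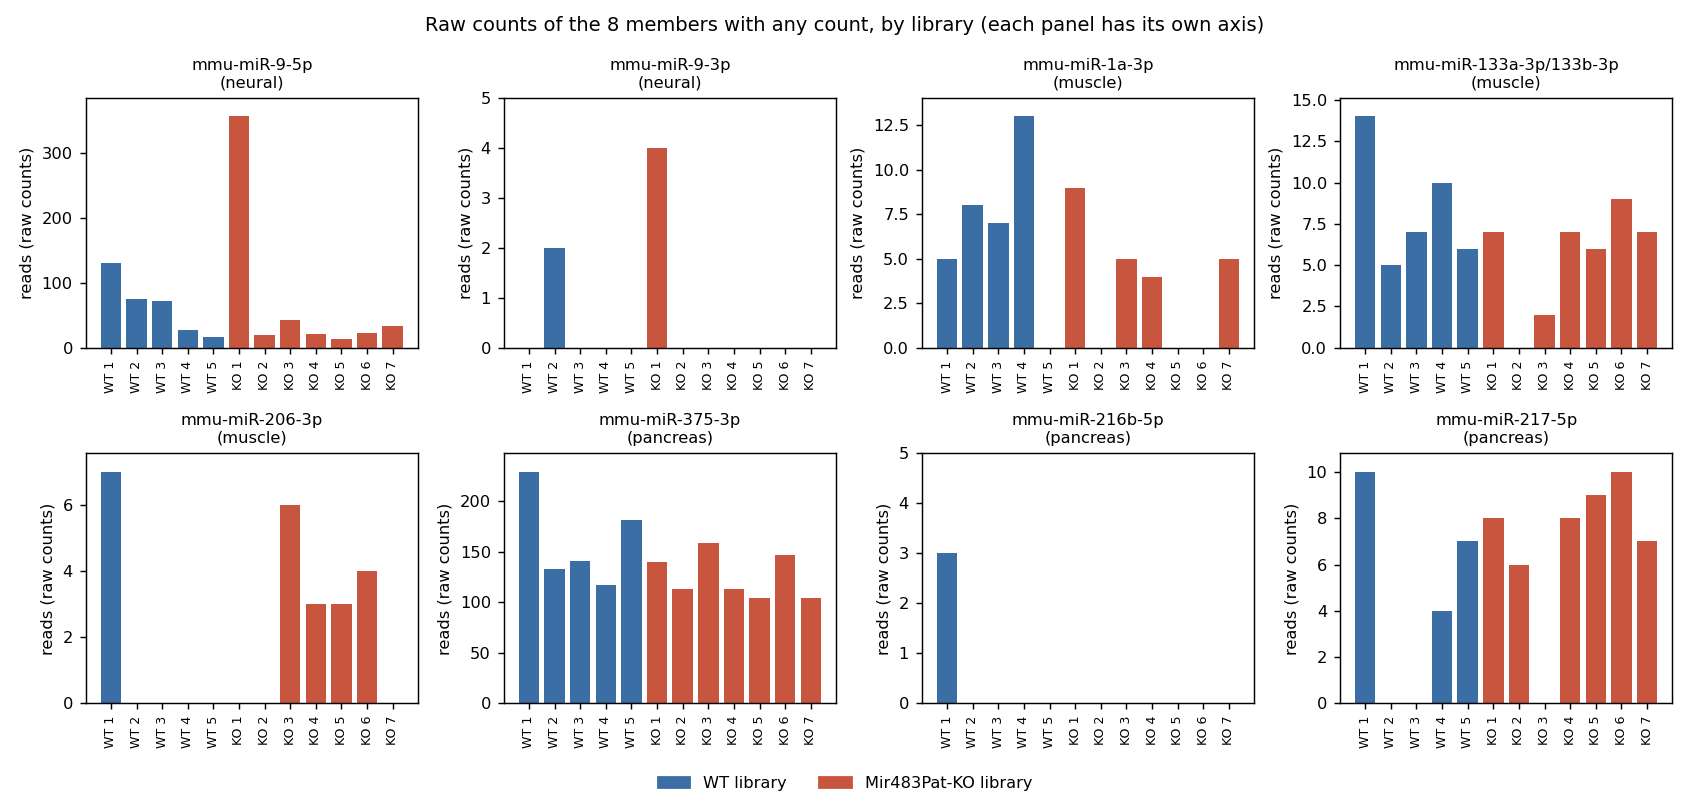
Bars show raw counts (reads, linear axis from 0, a separate scale in each panel) of the 8 miRs with any count in each of the 5 WT and 7 Mir483Pat-KO (KO) libraries. mmu-miR-9-5p stands at 356 reads in KO 1 and at 14 to 130 elsewhere, mmu-miR-375-3p is at 104 or more in every library, and the other 6 never exceed 14 reads.

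mmu-miR-9-5p was high in a single liver. The 5 WT libraries held 130, 75, 72, 27 and 17 reads, in order of replicate number. The 7 Mir483Pat-KO libraries held 356, 19, 42, 21, 14, 23 and 33 reads. Replicate 1 of Mir483Pat-KO thus stood above every other library, while the other 6 lay within or below the WT range. On the scale of CPM after TMM scaling, which adjusts libraries for differences in composition, that library reached 500.0 CPM. The next highest, WT replicate 1, was at 112 CPM, so the gap was 4.48-fold, and the 95% Poisson intervals of the counts, 320.0 to 395 and 109 to 154, did not overlap. The lowest library was WT replicate 5 at 17.1 CPM, 29.2-fold below the highest. WT replicates 1, 3 and 2 followed the top library at 112, 96.7 and 77.3 CPM. The remaining 8 libraries, 2 WT and 6 Mir483Pat-KO, lay between 17.1 and 47.2 CPM, and neighbours in this stretch differed by at most 1.51-fold. Counts below 50 reads carry intervals wide enough that most of these neighbours cannot be ranked, for example 7.65 to 23.5 for 14 reads and 14.6 to 34.5 for 23 reads.

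mmu-miR-9-3p, cut from the other arm of the same hairpins and usually the rarer product, had counts in 2 libraries. It had 4 reads in Mir483Pat-KO replicate 1, the library with the most mmu-miR-9-5p, and 2 reads in WT replicate 2, which ranked 4 for mmu-miR-9-5p. It was at 0 in the other 10 libraries. mmu-miR-124-3p, the neuronal miR, was at 0 in all 12 libraries, where the floor was 2.48 to 4.55 CPM. Since zeros were more frequent than counting error gives, a 0 does not bound its level at that floor. Its other arm, mmu-miR-124-5p, was also at 0 in every library. The liver with the most mmu-miR-9-5p therefore had no detectable neuronal mmu-miR-124-3p at this depth.

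The labels carry a number for each fetus, and a gap divides them. Below it are 4 WT and 4 Mir483Pat-KO fetuses (the lower range), and above it 1 WT and 3 Mir483Pat-KO (the upper range). What the numbers stand for beyond a name is not given in the sources used here. The 4 lowest numbers, those of WT replicates 1 to 3 and Mir483Pat-KO replicate 1, belong to the 4 libraries with the most mmu-miR-9-5p. Their levels were 77.3 to 500.0 CPM, and those of the other 8 fetuses were 17.1 to 47.2 CPM. This division was chosen after the values were seen, and no test was made of it. Within the lower range mmu-miR-9-5p spanned 28.5 to 500.0 CPM, and within the upper range 17.1 to 44.8 CPM. The part played by the numbering in the level of mmu-miR-9-5p was not tested. mmu-miR-375-3p overlapped between them, at 137 to 197 CPM (median 193) in the 4 lowest numbers and 125 to 182 CPM (median 160) in the other 8. After TMM scaling its 3 highest libraries, WT replicate 1, Mir483Pat-KO replicate 1 and WT replicate 3, were among the 4 lowest numbers, and WT replicate 2 was not high. With library size alone WT replicate 5, of the upper range, was at 194.5 CPM and WT replicate 1 at 189 CPM. The order of the highest libraries thus depended on the scaling.

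**Figure D2:**
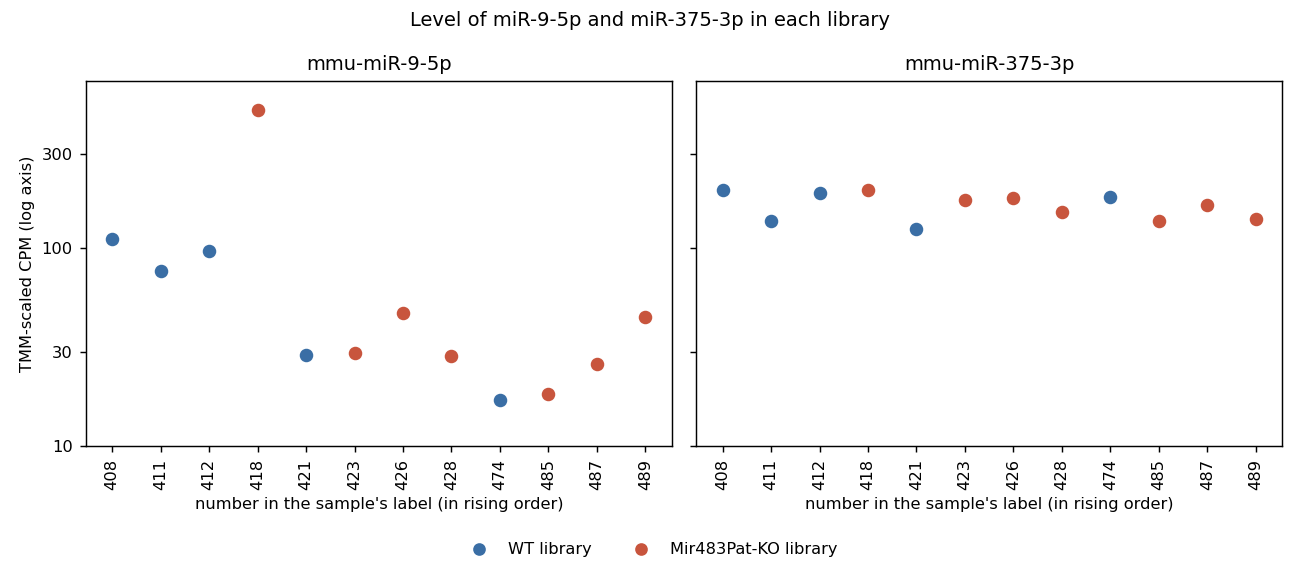
Points show the level (TMM-scaled CPM, log axis) of mmu-miR-9-5p on the left and mmu-miR-375-3p on the right in the 12 libraries, placed in rising order of the number in the sample's label. The 4 lowest numbers hold the 4 highest levels of mmu-miR-9-5p, whereas mmu-miR-375-3p lies between 125 and 197 CPM throughout.

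The other neural miRs did not peak in the library where mmu-miR-9-5p did. Of the 9 further neural miRs listed, 7 had any count, 5 were counted in at least 6 libraries and 4 in all 12. Their summed level was 138 to 193 CPM in WT and 118 to 187 CPM in Mir483Pat-KO. Replicate 1 of Mir483Pat-KO, the top library for mmu-miR-9-5p, ranked 4 of 12 for this sum, at 170 CPM. mmu-miR-128-3p, a brain miR also present in other tissues, had 57 to 114 reads in WT and 53 to 102 in Mir483Pat-KO, with 60 in replicate 1. mmu-miR-132-3p, which responds to neuronal activity, had 16 to 34 reads in WT and 9 to 22 in Mir483Pat-KO, with 12 in replicate 1. These are mid-range or low values for that library. mmu-miR-138-5p had 12 to 25 and 3 to 23 reads, and mmu-miR-218-5p, found in motor neurons, 15 to 36 and 9 to 24. Replicate 1 of Mir483Pat-KO had 19 and 21 reads, which in CPM was 26.7 for mmu-miR-138-5p, just above the WT range of 16.1 to 25.8, and 29.5 for mmu-miR-218-5p, inside the WT range of 15.5 to 48.4. It ranked behind Mir483Pat-KO replicate 4 for both. mmu-miR-219a-5p, a miR of oligodendrocytes, had 5 to 10 reads in all 5 WT libraries but was at 0 in 5 of 7 Mir483Pat-KO libraries, the others being replicates 1 and 6 with 6 and 4 reads. Zeros were frequent at such counts, 22.5% of entries where 5 to 10 reads were predicted. The median total was also higher in WT, 929129 against 742582 counts, so these zeros are not read as absence. Across the 12 libraries, Pearson's r of log2 CPM with mmu-miR-9-5p was 0.024 for mmu-miR-128-3p, 0.11 for mmu-miR-132-3p, 0.37 for mmu-miR-138-5p, 0.37 for mmu-miR-218-5p and 0.47 for mmu-miR-219a-5p. Without Mir483Pat-KO replicate 1 and WT replicate 1, the 2 libraries farthest from the median of mmu-miR-9-5p, they were −0.15, 0.61, 0.31, 0.41 and 0.32 in the same order. Within Mir483Pat-KO they were −0.13, −0.34, 0.48, 0.43 and 0.71. These r are descriptions over libraries that differ in depth. Whether the libraries were prepared together is not stated in the sources used here.

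**Figure D3:**
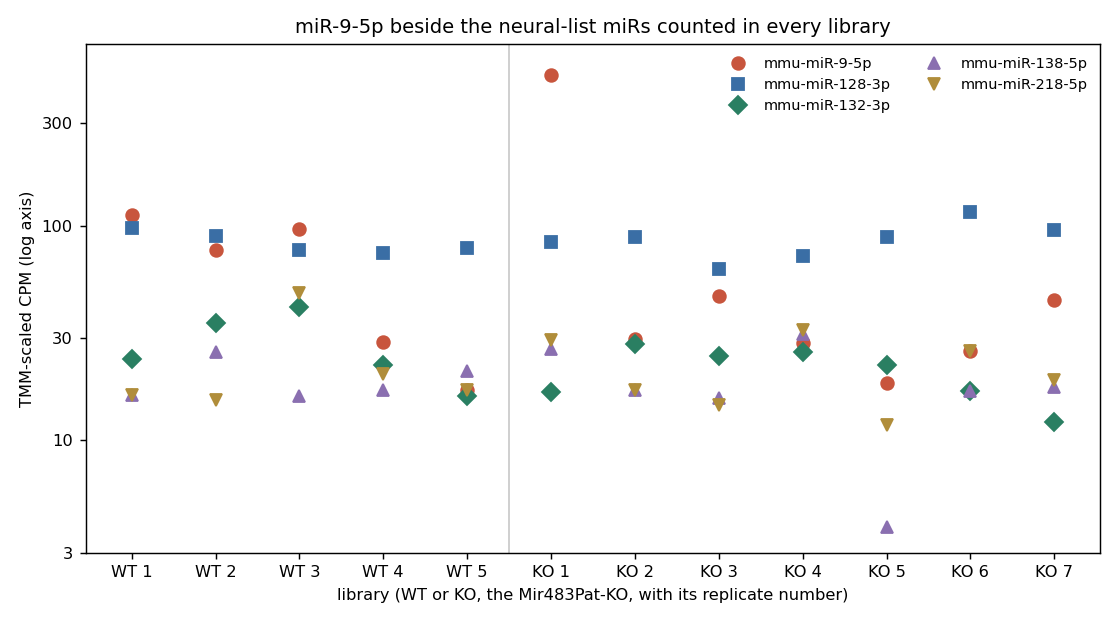
Points show the level (TMM-scaled CPM, log axis) of mmu-miR-9-5p and of the 4 other neural miRs that were counted in all 12 libraries, WT to the left of the line and Mir483Pat-KO (KO) to the right. mmu-miR-9-5p spans 17.1 to 500.0 CPM and peaks in KO 1, where none of the other 4 has its highest level.

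Among the 388 miRs with enough counts to be tested, 3 had a library that was at least 2-fold above every other. mmu-miR-9-5p in Mir483Pat-KO replicate 1 was one of them. mmu-miR-204-5p, a miR of pigmented and choroid plexus epithelium, was another and peaked in the same library, with 97 reads or 136 CPM against 21.4 CPM in the next library, a 6.38-fold gap. Its other 11 libraries held 9 to 19 reads. The remaining one was mmu-miR-5126 in WT replicate 2, at 184 against 78.9 CPM. mmu-miR-204-5p and mmu-miR-5126 came up in this search, made after values were seen, and belong to none of the lists.

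The spread between livers of the same genotype was measured as the biological coefficient of variation, the part of the variation that counting error does not account for. For mmu-miR-9-5p it was 0.858, against a trend of 0.198 for miRs of the same mean level, a ratio of 4.32. It ranked 10 of 388 by the coefficient itself and 4 by the ratio to the trend. Without replicate 1 of Mir483Pat-KO the coefficient was 0.446 against a trend of 0.219, so the excess was smaller but remained. mmu-miR-375-3p had 0.143 against 0.147, rank 204 of 388, and thus varied between livers as much as other miRs of its level.

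**Figure D4:**
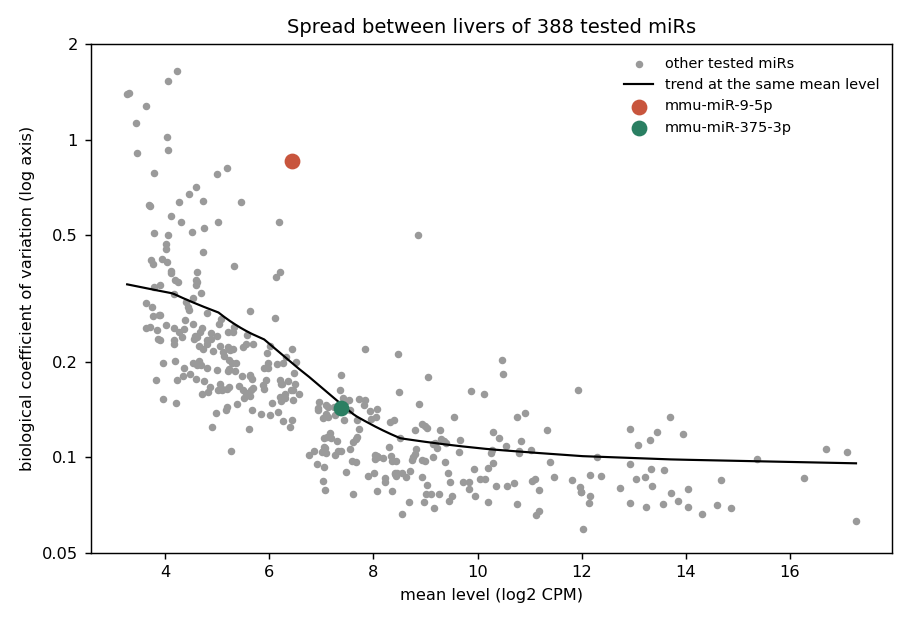
Points show the biological coefficient of variation (log axis) of the 388 tested miRs against their mean level (log2 CPM), and the line is the trend. mmu-miR-9-5p lies at 0.858, above the trend of 0.198 at its level, and mmu-miR-375-3p at 0.143 lies on it.

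mmu-miR-375-3p was counted at more than 100 reads in every library, and its level was even. WT libraries held 229, 133, 141, 117 and 181 reads and Mir483Pat-KO libraries 140, 113, 159, 113, 104, 147 and 104. In CPM the libraries ran from 125 to 197, a 1.57-fold range, and the genotypes overlapped. The mean was 166 ± 32.7 CPM in WT (SD, n = 5) and 164 ± 21.6 CPM in Mir483Pat-KO (SD, n = 7). In bulk liver, fewer cells that express a miR and less of it in each cell cannot be told apart.

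The acinar miRs were at or near the floor. mmu-miR-216a-5p was at 0 in all 12 libraries, with the same floor of 2.48 to 4.55 CPM, which does not bound its level either. mmu-miR-216b-5p had 3 reads in WT replicate 1 and none elsewhere. mmu-miR-217-5p, from the third gene of the cluster, was counted in 9 libraries. It had 10, 0, 0, 4 and 7 reads in WT and 8, 6, 0, 8, 9, 10 and 7 in Mir483Pat-KO, so zeros occurred in both genotypes and no library passed 10 reads. mmu-miR-217-3p, the other arm of its hairpin, was counted in 7 libraries with 2 to 9 reads, and mmu-miR-217-5p was at 0 in 3 of those 7. Reads of Mir217 were thus counted with almost none of its neighbours Mir216a and Mir216b. Since ligation differs by sequence and a 0 does not bound a level, the levels of these genes were not compared.

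Of the 7 further pancreas miRs listed, 3 had any count. mmu-miR-7a-5p, an islet and neuroendocrine miR, made up most of their reads, with 240 to 420 in WT and 225 to 390 in Mir483Pat-KO. Since mmu-miR-375-3p is also an epithelial miR, the epithelial list is set beside it. All 7 of its miRs had counts, with a summed level of 1247 to 2089 CPM in WT and 1269 to 1727 CPM in Mir483Pat-KO. The r of mmu-miR-375-3p with mmu-miR-200c-3p was 0.57, the highest of the 7 epithelial miRs, and fell to 0.17 without the 2 libraries farthest from the median of mmu-miR-375-3p. That with mmu-miR-141-3p was −0.062.

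The muscle miRs were at single-digit counts in most libraries. mmu-miR-133a-3p/133b-3p had 14, 5, 7, 10 and 6 reads in WT and 7, 0, 2, 7, 6, 9 and 7 in Mir483Pat-KO, and was counted in 11 libraries. mmu-miR-1a-3p had 5, 8, 7, 13 and 0 reads in WT and 9, 0, 5, 4, 0, 0 and 5 in Mir483Pat-KO. The genotypes overlapped for both, and Mir483Pat-KO replicate 2, the shallowest library, was at 0 for both. mmu-miR-206-3p, restricted to skeletal muscle among the 3, had 7 reads in WT replicate 1 and 6, 3, 3 and 4 reads in Mir483Pat-KO replicates 3 to 6, with 0 in the other 7 libraries. The summed level of the 3 muscle miRs was 0 to 24.6 CPM, with a median of 15.5 CPM. All 3 were counted together in 3 libraries, WT replicate 1 and Mir483Pat-KO replicates 3 and 4. Of 9 further muscle miRs listed, mmu-miR-133b-3p shares the entry above and 7 were at 0 in every library, among them the miRs hosted by cardiac myosin genes, mmu-miR-208a-3p and mmu-miR-208b-3p. mmu-miR-499-5p, hosted by another myosin gene, was counted in 11 libraries with 4 to 11 reads.

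Between genotypes, none of the 10 miRs was called, and the 2 at 0 in every library could not be tested. A miR was called at an adjusted p under 0.05 (edgeR's quasi-likelihood test, Benjamini-Hochberg over all miRs tested). The background was 8 of 388 miRs called, or 2.06%, after a filter on low counts that mmu-miR-9-5p and mmu-miR-375-3p alone of the 10 passed, and 6 of 682, or 0.88%, with no filter. At an unadjusted p under 0.05 there were 68 of the 388 and 96 of the 682, and none of the 10 was among them. For mmu-miR-375-3p the log2 fold change, Mir483Pat-KO minus WT, was −0.017 (SE 0.13, 95% interval −0.29 to 0.25, edgeR adjusted p = 0.976). For mmu-miR-9-5p it was 0.57 (SE 0.76, 95% interval −1.06 to 2.19, edgeR adjusted p = 0.774). That sign came from 1 liver. The mean of mmu-miR-9-5p was 66.3 ± 41.6 CPM in WT (SD, n = 5) and 99.2 ± 177 CPM in Mir483Pat-KO (SD, n = 7). Without replicate 1 of Mir483Pat-KO the latter was 32.4 ± 11.3 CPM (SD, n = 6). The log2 fold change was then −1.03 (edgeR unadjusted p = 0.0209, adjusted p = 0.180), so the result at the unadjusted threshold also depended on that liver. With it left out, the lowest label numbers were all WT, replicates 1 to 3 at 77.3 to 112 CPM. WT replicates 4 and 5 were at 28.9 and 17.1 CPM, beside 18.4 to 47.2 CPM in the remaining Mir483Pat-KO libraries. Among the lowest numbers genotype and numbering then cannot be told apart. The median log2 fold change of the 388 miRs was 0.0028.

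The low miRs were fitted only with no filter, where their values rest on a few reads. The log2 fold changes were −0.32 for mmu-miR-133a-3p/133b-3p (SE 0.67) and −0.71 for mmu-miR-1a-3p (SE 1.07), against 1.11 for mmu-miR-217-5p (SE 0.93). Their adjusted p in edgeR's quasi-likelihood test ran from 0.573 to 0.852. The SE of each was close to the size of the estimate or above it. No fold is given for mmu-miR-206-3p, mmu-miR-9-3p and mmu-miR-216b-5p, which were counted in fewer than 6 libraries and had 7 against 16, 2 against 4 and 3 against 0 reads in WT and Mir483Pat-KO. The numbers of the library indices, 37 to 41 in WT and 42 to 48 in Mir483Pat-KO, follow the genotype, and so their order and the genotype cannot be told apart.

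Whether miRs of one organ were high in the same libraries could be examined for the 5 miRs counted in at least 6 libraries. They form 10 pairs, of which 2 are of one organ, and Pearson's r was computed on log2 CPM over the 12 libraries with a two-sided permutation p, adjusted over the 10 pairs by Benjamini-Hochberg. For the muscle pair, mmu-miR-1a-3p with mmu-miR-133a-3p/133b-3p, r was 0.37 (permutation p = 0.238, adjusted 0.595) and Spearman's rho 0.29 (permutation p = 0.352, adjusted 0.586). Without WT replicate 5 and Mir483Pat-KO replicate 2, both at 0 for mmu-miR-1a-3p, r was −0.015. It was 0.38 without WT replicate 5 alone and 0.087 without Mir483Pat-KO replicate 2 alone, so the relation rested on the latter, the shallowest library. Within Mir483Pat-KO alone r was 0.33, and within the lower range of label numbers it was 0.77, over 8 libraries. Both of these subsets still include Mir483Pat-KO replicate 2. For the pancreas pair, mmu-miR-375-3p with mmu-miR-217-5p, r was −0.0038 (permutation p = 0.990, adjusted 0.990) and rho −0.13 (permutation p = 0.696, adjusted 0.845). Without WT replicate 4 and Mir483Pat-KO replicate 5 it was 0.089, within Mir483Pat-KO −0.31 and within the lower range 0.18. Neither pair thus rose together beyond what the spread between libraries allows to be seen.

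The highest r was between organs. mmu-miR-9-5p with mmu-miR-1a-3p gave 0.64 (permutation p = 0.0192, adjusted 0.192) and rho 0.62 (permutation p = 0.0362, adjusted 0.362). Without Mir483Pat-KO replicate 1 and WT replicate 1 r was 0.69, within Mir483Pat-KO 0.74 and within the lower range 0.42. After adjustment it did not pass 0.05. mmu-miR-9-5p with mmu-miR-375-3p gave 0.48 (permutation p = 0.106, adjusted 0.505) and fell to 0.12 without the same 2 libraries. mmu-miR-9-5p with mmu-miR-217-5p gave −0.16 (permutation p = 0.636, adjusted 0.802) and −0.81 without those 2 libraries, against 0.0055 within Mir483Pat-KO and 0.097 within the lower range. The median r was 0.18 over the 2 pairs of one organ and 0.051 over the 8 pairs of different organs, beside −0.0027 over the 75078 pairs of tested miRs, of which 7.42% were over 0.5. Of 18 further relations of these miRs with listed miRs of the same organ or of epithelium, none passed an adjusted p of 0.05 by permutation. The highest r, 0.59, was that of mmu-miR-217-5p with mmu-miR-7a-5p (permutation p = 0.0422, adjusted 0.501).

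By a fixed rule, the 5 miRs whose log2 CPM followed that of mmu-miR-9-5p most closely over the 12 libraries were sought among 386 others. They were mmu-miR-340-5p (r = 0.75), mmu-miR-193a-3p (0.72), mmu-miR-204-5p (0.70), mmu-let-7c-5p (0.60) and mmu-miR-34a-5p (0.59). None is on the neural, muscle or pancreas lists. Without replicate 1 of Mir483Pat-KO the r of mmu-miR-340-5p was 0.80 and that of mmu-miR-34a-5p 0.69, whereas that of mmu-miR-204-5p was −0.22, so mmu-miR-204-5p shared the peak in that library and nothing else. mmu-miR-340-5p itself varied little, from 166 to 219 CPM. Those closest to mmu-miR-375-3p were mmu-miR-744-5p (0.72), mmu-miR-669b-5p (0.71), mmu-miR-1983 (0.65), mmu-miR-378a-3p/378b/378c (0.63) and mmu-miR-191-5p (0.63). They too are on none of the 3 organ lists. Both sets are the highest of 386 r over 12 libraries, and these r were not tested. For each of the 2 miRs, 2 of the 386 had an r over 0.7.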

How the data were processed

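Small RNA from the livers of 5 WT and 7 Mir483Pat-KO fetuses was extracted with miRNeasy kits, made into TruSeq Small RNA libraries and sequenced on a NovaSeq6000. The authors used miRge for alignment and counting. Deposited were whole-number counts for each mature miR, without normalization. The miR reference is not given in the sources used here. GRCm38 is the build in the submitters' processing notes. Groups and replicate numbers came from the labels, and columns were assigned by the number in their names. Unassigned columns numbered 0.

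Counts were filtered with filterByExpr (minimum count 10, total 15), scaled by TMM and tested with glmQLFit (legacy) and glmQLFTest, genotype alone in the design, in edgeR 4.0.16 under R 4.3.3. DESeq2 1.42.0 and limma-voom (limma 3.58.1), library size alone, RLE, other filters, a replicate block, the range of label numbers, a prior count of 0.5 and leaving out each of the 12 libraries were alternatives. Correlations used log2 CPM (prior count 2) and 100000 permutations, in scipy 1.17.1. Intervals of counts are exact 95% Poisson intervals. Tested on simulated counts of 388 miRs of the same comparison, of which 200 were changed, the code called 83.5% of the changed ones, and 1.76% of the 170 calls were false. Positions came from the GENCODE annotation and sequences from RefSeq. All 10 miRs are named, with the 5 miRs most like each that passed the filter and listed miRs counted in at least 6 libraries. mmu-miR-5126 falls outside that rule and was picked with its values in view. The 10 miRs and the lists were chosen with earlier results of these data known. Red and white blood cell lists gave 22499 to 35550 and 11343 to 14813 CPM.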

Additional observations from a re-analysis of the deposited data

Results flagged for a closer look

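In 15 groups of 5 or 7 libraries of one genotype, the gap between the extreme library and its nearest neighbour was set against Dixon's 95% limit, and 6 passed it. Chance flags about 1 in 20 groups, and groups made mostly of zeros pass with any lone count. mmu-miR-9-5p in Mir483Pat-KO replicate 1 stood at 500.0 CPM (356 reads) with the next Mir483Pat-KO library at 47.2 CPM. The other arm, mmu-miR-9-3p, was at 5.62 CPM (4 reads) in the same library and at 2.06 CPM (2 reads) in WT replicate 2, with every other library of the genotype at 0. mmu-miR-206-3p was at 6.01 CPM (7 reads) and mmu-miR-216b-5p at 2.58 CPM (3 reads) in WT replicate 1 alone among the WT libraries. mmu-miR-217-5p was at 0 in Mir483Pat-KO replicate 3, with the next library at 9.35 CPM.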

How the results depend on the processing

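mmu-miR-9-5p, mmu-miR-375-3p, mmu-miR-1a-3p, mmu-miR-133a-3p/133b-3p and mmu-miR-217-5p were not called under any alternative that was run. DESeq2 gave no adjusted p for mmu-miR-1a-3p, mmu-miR-133a-3p/133b-3p and mmu-miR-217-5p, so they could not be called there. Against 8 miRs called in all, 14 were called with library size alone, 27 with DESeq2, 5 with the range of label numbers as a factor and 3 with the replicate block, and leaving out each library in turn gave 3 to 12. Same-numbered libraries did not visibly deviate together (r from −0.24 to 0.23 over 5 pairs, 1 of which was the best match of its own number). So few pairs cannot settle whether the replicate numbers mark a pairing. The log2 fold change of mmu-miR-9-5p reversed to −0.22 with limma-voom and to −1.03 without Mir483Pat-KO replicate 1, and leaving out single libraries gave −1.03 to 0.86. The near-zero value of mmu-miR-375-3p changed sign to 0.026 with the replicate block and to 0.0023 with the range as a factor, and leaving out single libraries gave −0.11 to 0.055. The r of mmu-miR-375-3p with mmu-miR-217-5p was 0.00012 on genotype-centred values and −0.22 to 0.18 leaving out single libraries. That of the muscle pair stayed between 0.087 and 0.50. The spread of mmu-miR-9-5p fell to 0.446 without Mir483Pat-KO replicate 1. Levels moved by less than the spread between libraries with library size alone. Zeros limit what these libraries can show, most of all below about 10 reads but also above that. The cause of these changes was not tested.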
